A study of Mus musculus with 6 samples.

Results

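The nuclear genes for the respiratory chain and the ATP synthase were compared between the colons of Islr knockout and control mice. Members were all protein-coding genes whose current mouse symbol belongs to the Nduf subunit series, the 4 Sdh subunits, the Uqcr genes, the Cox4 to Cox8 subunits or the Atp5 genes, found through the RefSeq accession of each probe. The RefSeq table holds 87 such genes, and 83 of them had a probe, out of 23462 named genes on the array. The other 4 (Cox5b, Ndufb1, Ndufb4b and Ndufb4c) were not analysed here. The 83 genes were read by 105 of the 56605 probes and comprised 37 complex I, 4 complex II, 8 complex III, 17 complex IV and 17 ATP synthase genes.

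The respiratory chain of the inner mitochondrial membrane passes electrons from NADH through complex I, or from succinate through complex II, to coenzyme Q, complex III, cytochrome c and complex IV, which reduces oxygen. The ATP synthase uses the proton gradient built by complexes I, III and IV. Most subunits are nuclear-encoded, and colonocytes, which oxidise butyrate, depend strongly on this pathway. Several complex IV subunits exist as widely expressed and tissue-restricted paralogues, for example the muscle forms Cox6a2, Cox7a1 and Cox8b.

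Total RNA of colon samples from male mice was hybridised to 6 single-colour Agilent arrays, 3 from controls and 3 from mice with a knockout of Islr, a gene for a secreted leucine-rich repeat protein. In both groups the sample source names 3.5% dextran sulfate sodium (DSS), an agent toxic to colonic epithelium, given as drinking water for 5 days and followed by 1 day of recovery, although the treatment field of the same samples reads as none. The design text also speaks of flow separation, while the tissue is given as colon. Age, strain, how the controls were bred and which cells carried the deletion are not stated, so these are control and knockout animals as labelled. Values are log2 signals after subtraction of the array's 75th percentile, so 0 marks that percentile on each array, and differences are knockout minus control.

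The Islr probe read 1.57, 1.24 and 1.21 in the controls and -1.40, -0.93 and -1.31 in the knockouts, with no overlap. The difference was -2.44 from 2 usable controls (SE 0.21, limma adjusted p = 0.0171) and -2.55 with outlier spots kept. Without knockout replicate 3 the difference was -2.39 and the call was lost (adjusted p = 0.0580). Without control replicate 2 or 3 Islr could be tested only with outlier spots kept (limma adjusted p = 0.02985 and 0.03267). The 2 slide rows each held 1 genotype, so row and genotype cannot be told apart. Knockout replicate 1 stood apart technically: its 75th percentile was the lowest (4910.5 intensity units, against 5774 to 7110 on the other arrays), and 50.7% of the 75 widely expressed members had a spot marked as an outlier there, against 8% to 32% elsewhere. Of 83 members 81 were well above background on all 6 arrays, and the testis forms Cox7b2 and Cox8c on none. Each of the 16 colon epithelium markers checked was well above background on all 6 arrays. After removal of outlier spots 64 members could be tested, and the other 17 had fewer than 2 usable values in a group.

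Widely expressed subunit genes of every complex were higher in the knockout colons by a small and similar amount, and none of them passed the test on its own. All 58 tested genes outside the tissue-restricted paralogues had a positive difference, between 0.04 and 0.58, with a median of 0.38 (a 1.30-fold higher signal). Over all 16451 named genes tested, the median difference was 0.01 and 51.2% were higher. With a threshold of 0.05 on the adjusted p, limma called 3.97% of 35351 probes and 0 of the 64 members. An unadjusted p under 0.05 was reached by 13 of 64 members, 9 of them widely expressed, against 26.8% of all probes, so the share of members at that level (9 of 58 widely expressed) did not exceed the background. The pattern lies in the common direction, not in single genes. Over all 64 tested members the median was 0.37, with 59 higher and 5 lower, and the 5 lower ones were all tissue-restricted paralogues. The widely expressed members moved together over the arrays, so these counts of genes are not counts of independent observations. The members' median varied between replicates with an SD of 0.20, beside the difference of 0.37. The counts describe the direction in these samples and do not test it.

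Bright probes as a class were also somewhat higher in the knockouts, and most members are bright. The brightest 10% of other named genes (1592 genes) had a median difference of 0.16, with 81.1% higher, and the 54 widely expressed members in the same brightness range had a median of 0.37. Quantile normalization gave every array the same distribution and took the median of the brightest other genes to 0.01 (52.7% higher), while the 58 widely expressed members kept a median of 0.22, all 58 still above 0. Under that scaling the median of all named genes was -0.02.

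**Figure D1:**
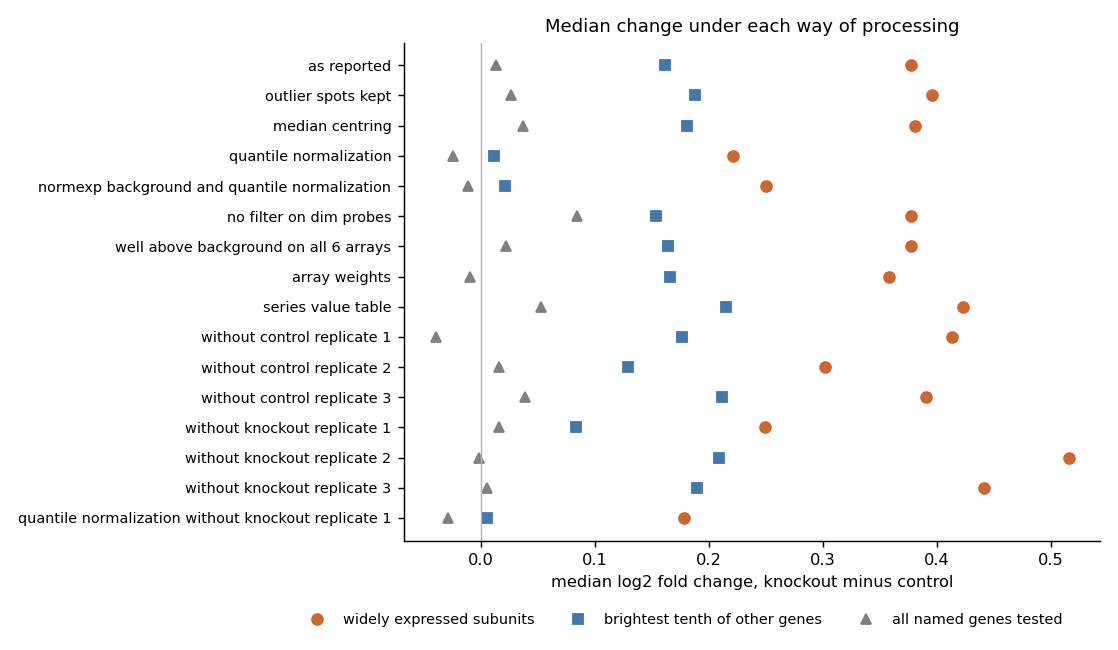
Median log2 fold change (x axis, knockout minus control) of the widely expressed subunit genes (circles), the brightest 10% of other genes (squares) and all named genes tested (triangles) under the ways of processing (y axis). The fits that left out 1 array with outlier spots kept are not shown. The subunit genes lay to the right of both other classes in each row, with 0.38 as reported, 0.22 after quantile normalization and 0.18 after quantile normalization without knockout replicate 1.

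With the outlier spots kept, 81 members could be tested; 75 were higher, with a median of 0.39. Among the 75 widely expressed ones 74 were higher, the exception being Ndufa4. In this fit 4.85% of probes were called, and 2 members, Cox6a2 and Cox7a1, both tissue-restricted. Every knockout exceeded every control for 54 of the 75 widely expressed members, against 17.3% of all probes and 32.9% of the brightest 10% of other named genes. The reverse, every knockout under every control, held for 0 of the 75, against 17.6% of all probes and 4.30% of the brightest 10% of other named genes. After quantile normalization the counts were 40 of 75 members and 20.8% of the brightest other genes.

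The members followed one profile over the 6 arrays, so the gene counts above are not counts of independent observations. Measured from each gene's control mean, the median widely expressed member stood at 0.12, -0.13 and 0.03 in control replicates 1, 2 and 3 and at 0.71, 0.18 and 0.33 in knockout replicates 1, 2 and 3. Knockout replicate 1 held the highest value for 74 of the 75 genes, and control replicate 2 the lowest for 62. On the quantile scale the medians were 0.10, -0.05 and -0.03 in controls and 0.36, 0.13 and 0.23 in knockouts, so the knockout medians still exceeded each control median while the gap of knockout replicate 1 narrowed. Without knockout replicate 1 the median of the 58 tested genes was 0.25, with all 58 higher, and the brightest other genes stood at 0.08. Without that replicate and after quantile normalization it was 0.18, with 57 of 58 higher. Replicates 2 and 3 of the knockout thus showed the same direction at a smaller size. On both scales knockout replicate 2 lay little above control replicate 1: 0.18 against 0.12 before quantile normalization and 0.13 against 0.10 after it. For the ATP synthase genes on the quantile scale it lay just below, at 0.0948 against 0.0958.

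**Figure D2:**
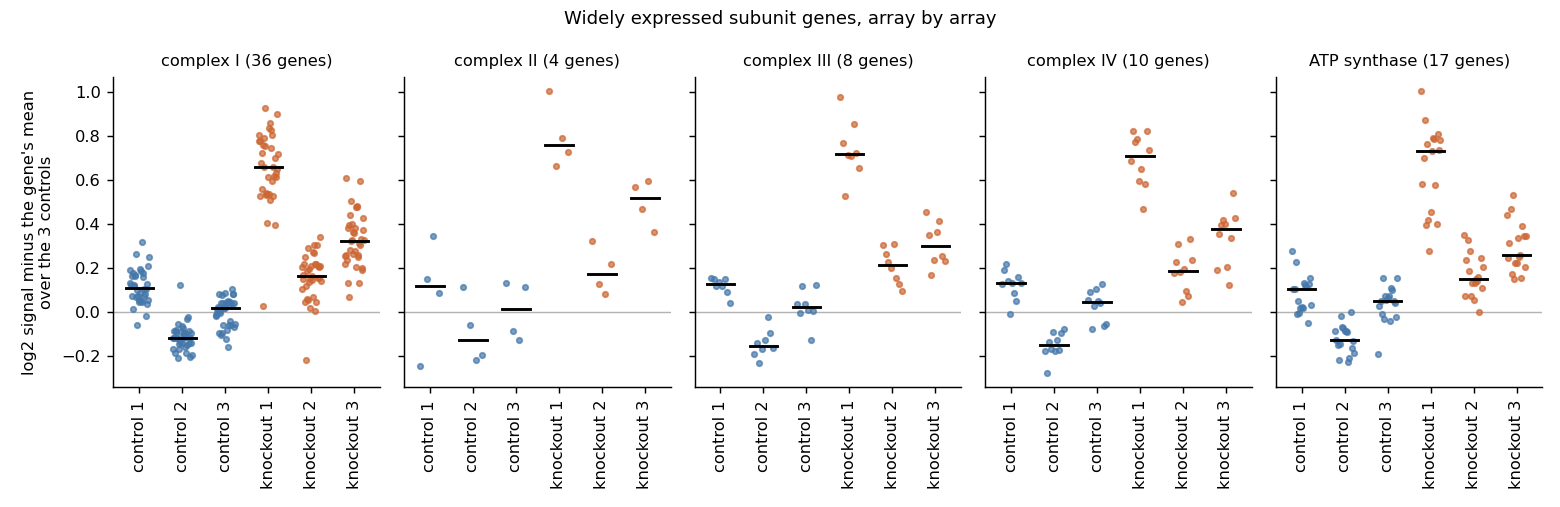
Log2 signal of each widely expressed subunit gene minus its own mean over the 3 controls (y axis), for each array (x axis) and complex (panels), outlier spots kept; points are genes and bars their median. Knockout replicate 1 lies highest in all 5 panels and knockout replicates 2 and 3 lie between it and the controls, with medians of 0.71, 0.18 and 0.33 over all 75 genes.

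Expression of these genes is known to be coordinated by the transcription factors NRF1, GABP (an ETS factor), YY1 and the oestrogen-related receptors (ERR). Since most members were higher together, their promoters were searched on both strands for the letters CGCATGCG (NRF1), CCGGAAG (ETS/GABP), AAGATGGCG (YY1) and TCAAGGTCA (ERR), in windows from 250 bases before to 50 bases after the RefSeq start in GRCm38.p6. A window was found for 67 of the 83 genes (72 windows). The NRF1 letters were in 12.5% of the members' windows and 1.87% of all 32851 windows, the ETS/GABP letters in 23.6% and 8.86%, the YY1 letters in 9.72% and 1.403%, and the ERR letters in 2.78% and 0.423%. Matches of different motifs did not overlap in any member window (0 overlaps). Within the protein-coding windows the shares were 2.52%, 11.6%, 1.83% and 0.334%. A match describes the letters and not a bound site.

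Among the widely expressed members with a window and a value, the 28 with at least 1 motif had a median difference of 0.40 with outlier spots kept, and the 35 without any also had a median of 0.40. None of the 4 tissue-restricted members with a window (Cox6b2, Cox7a1, Cox7b2 and Cox8b) held a match. The 35 widely expressed members held none either, so lack of a match is not particular to these 4. The windows of 4 genes with matches and the Cox7a1 window without one are printed as examples. They run 5′ to 3′ on the gene's strand, with matches in capitals and positions counted from 0 at the RefSeq start. Cox6a1 (chr5:115348909-115349208, minus strand) has the NRF1 letters at -161 to -154 and the reverse complement of the ETS/GABP letters at -16 to -10. Uqcr11 (chr10:80406772-80407071, minus strand) has ETS/GABP at -66 to -60 and NRF1 at -5 to 2. Sdhd (chr9:50603800-50604099, minus strand) has ETS/GABP at -46 to -40 and ERR at 36 to 44, both as reverse complements. Ndufa9 (chr6:126849095-126849394, minus strand) has YY1 at 29 to 37, and Cox7a1 lies at chr7:30183921-30184220, plus strand.
Cox6a1: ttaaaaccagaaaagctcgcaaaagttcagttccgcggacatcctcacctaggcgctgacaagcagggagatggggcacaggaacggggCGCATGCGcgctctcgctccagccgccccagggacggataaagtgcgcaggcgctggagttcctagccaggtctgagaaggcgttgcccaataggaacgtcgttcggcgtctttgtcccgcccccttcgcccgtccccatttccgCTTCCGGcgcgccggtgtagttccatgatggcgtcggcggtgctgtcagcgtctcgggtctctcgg
Uqcr11: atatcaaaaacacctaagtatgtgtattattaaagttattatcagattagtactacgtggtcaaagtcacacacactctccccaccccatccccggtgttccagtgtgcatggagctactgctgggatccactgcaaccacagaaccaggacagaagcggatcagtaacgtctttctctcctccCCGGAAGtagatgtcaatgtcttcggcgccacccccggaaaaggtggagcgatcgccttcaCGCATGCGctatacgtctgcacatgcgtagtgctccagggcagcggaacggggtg
Sdhd: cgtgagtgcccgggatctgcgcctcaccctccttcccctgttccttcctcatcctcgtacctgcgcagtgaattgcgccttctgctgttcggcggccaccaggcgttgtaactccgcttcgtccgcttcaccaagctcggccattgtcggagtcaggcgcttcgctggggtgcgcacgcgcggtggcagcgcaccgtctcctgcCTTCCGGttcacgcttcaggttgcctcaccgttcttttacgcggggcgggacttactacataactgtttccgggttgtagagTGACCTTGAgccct
Ndufa9: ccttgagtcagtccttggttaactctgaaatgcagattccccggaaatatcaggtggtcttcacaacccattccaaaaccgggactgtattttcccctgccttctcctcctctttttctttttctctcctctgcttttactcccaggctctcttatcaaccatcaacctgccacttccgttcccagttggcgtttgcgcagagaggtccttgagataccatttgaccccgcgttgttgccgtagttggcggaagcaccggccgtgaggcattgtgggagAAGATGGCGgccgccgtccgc
Cox7a1: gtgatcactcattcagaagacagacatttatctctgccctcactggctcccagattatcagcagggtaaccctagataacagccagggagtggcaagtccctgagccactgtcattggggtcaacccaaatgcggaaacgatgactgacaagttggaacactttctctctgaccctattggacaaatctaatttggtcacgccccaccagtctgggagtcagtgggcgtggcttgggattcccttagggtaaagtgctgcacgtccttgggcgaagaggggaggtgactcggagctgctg

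Complex I accepts electrons from NADH through a peripheral arm and pumps protons through a membrane arm. Of its 37 members 31 were tested, 30 were higher, 0 were called and the median difference was 0.38. The largest differences belonged to Ndufa9, Ndufb8 and Ndufb9. Ndufa9, a subunit near the junction of the arms whose window carries the YY1 letters, read 1.76, 1.33 and 1.3996 in controls and 2.42, 1.79 and 1.998 in knockouts. Every knockout exceeded every control, although knockout replicate 2 did so by little (difference 0.57, SE 0.22, a 1.49-fold higher signal, adjusted p = 0.159).

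Ndufb8, a membrane arm subunit often used as a marker of assembled complex I, read 2.31, 2.02 and 2.05 in controls and 2.99, 2.401 and 2.61 in knockouts, again without overlap (0.54, SE 0.20, adjusted p = 0.149); its dimmer probe gave 0.41. Ndufb9, a membrane arm subunit, read 2.25, 1.76 and 1.77 against 2.76, 2.19 and 2.41, and here knockout replicate 2 lay below control replicate 1 (0.53, SE 0.22, adjusted p = 0.187). The catalytic core gave similar values. The NADH-binding subunit Ndufv1 differed by 0.50 (SE 0.22), its partner Ndufv2 by 0.38 (SE 0.17), and the core subunits Ndufs3, Ndufs7 and Ndufs8 by 0.40, 0.32 and 0.35, with adjusted p between 0.211 and 0.329.

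The smallest differences among the widely expressed complex I genes tested were those of Ndufa2 (0.04, SE 0.20) and Ndufb2 (0.21, SE 0.17), accessory subunits. Ndufa2 had 2 usable values per group; with outlier spots kept it read 2.70, 2.60 and 2.77 against 3.25, 2.73 and 2.82, a difference of 0.25. Its sign turned to -0.02 with median centring and to -0.04 with normexp and quantile normalization, and that of Ndufb2 to -0.0006 with the latter. The 6 members lost to outlier marks were Ndufa4, Ndufa11, Ndufb3, Ndufb11, Ndufs1 and Ndufs4. With the marks ignored Ndufs1, the largest core subunit, differed by 0.42 (SE 0.21), Ndufs4 by 0.51 (SE 0.16), Ndufa11 by 0.52 (SE 0.20), Ndufb11 by 0.36 (SE 0.17) and Ndufb3 by 0.26 (SE 0.17).

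Ndufa4, first assigned to complex I and since regarded as a complex IV subunit, departed from the common profile. It read 2.58, 2.34 and 2.45 in controls and 2.48, 2.24 and 2.52 in knockouts, and only 1 knockout array had a spot not marked as an outlier. The groups overlapped and the difference with outlier spots kept was -0.04 (SE 0.16, adjusted p = 0.887). Its paralogue Ndufa4l2, which is induced by hypoxia, was far dimmer relative to other probes and read -2.82, -3.24 and -3.23 in controls and -4.35, -3.66 and -3.90 in knockouts. Every knockout lay below every control, with a difference of -0.88 (SE 0.23, a 1.83-fold lower signal) that missed the threshold (adjusted p = 0.0777).

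Ndufa7, an accessory subunit, was the one member with tested probes of opposite sign. Its bright probe was higher in knockouts by 0.33 (SE 0.20, adjusted p = 0.328). Its dim probe was named through a non-coding transcript of the gene, so it need not read the mRNA of the subunit. It was well above background on all 3 controls and on 0 knockouts, and entered the test through the controls. Only a bound applies, at least 1.46-fold higher in controls (adjusted p = 0.0820). Over the 20 members with several probes, 21 of the 22 further probes were higher in the knockouts with outlier spots kept, the Ndufa7 probe being the exception.

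**Figure D3:**
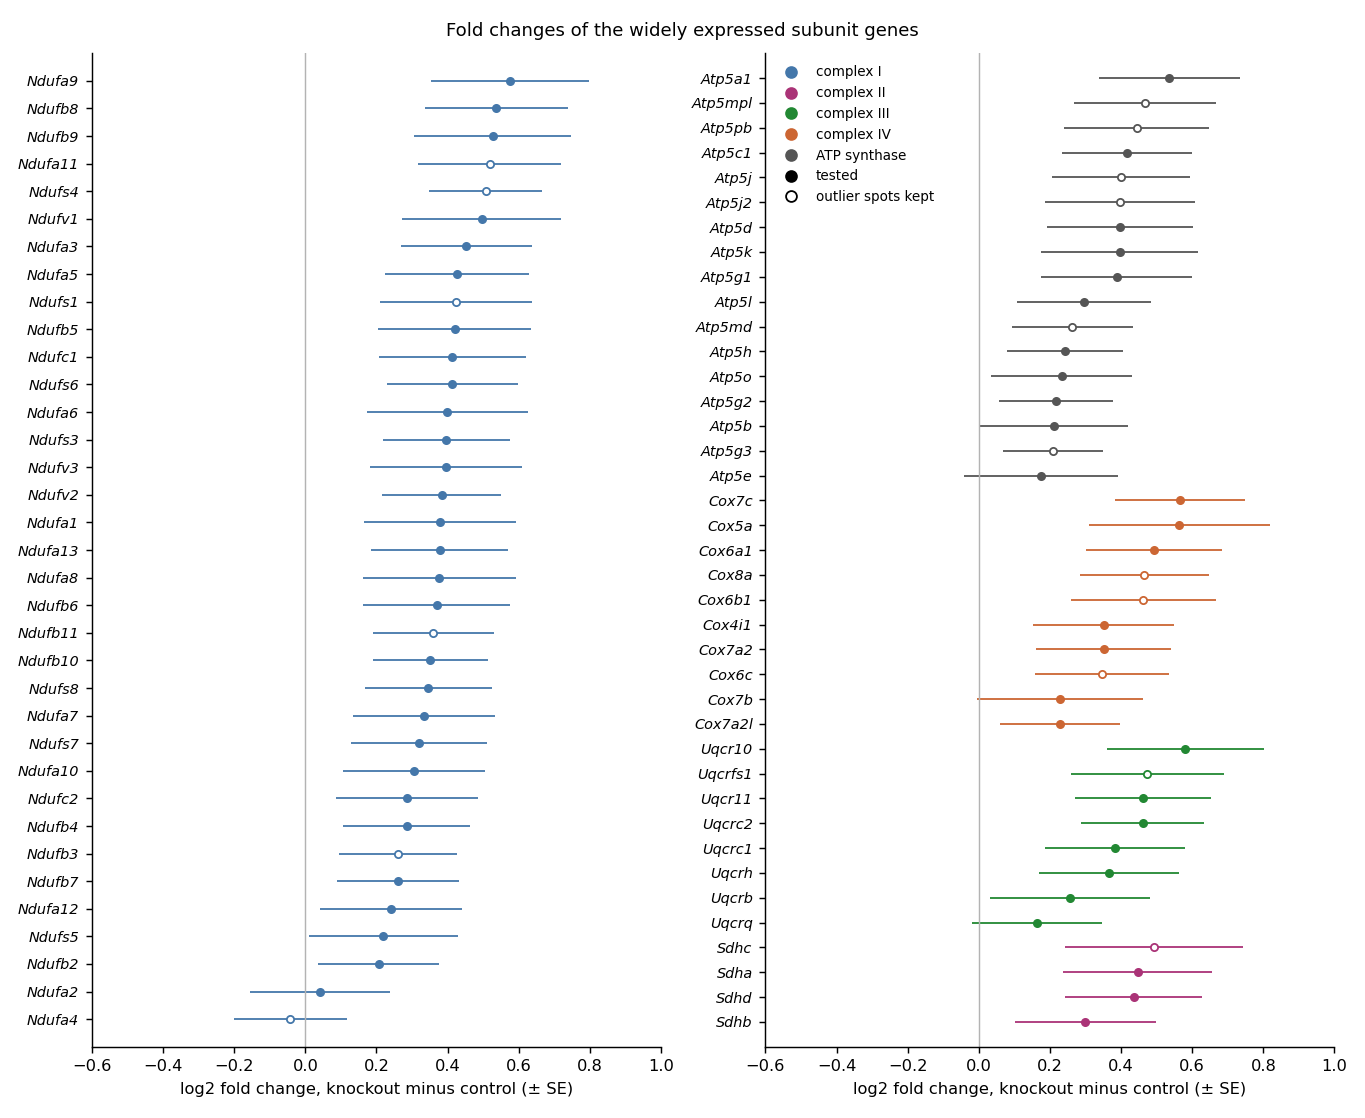
Log2 fold change (x axis, knockout minus control) with its standard error for the widely expressed subunit genes, 1 complex I gene not shown, complex I on the left and the other complexes on the right, ordered by size within a complex. Filled points were tested with outlier spots removed and open points are the 17 genes measured only with those spots kept; all points shown but that of Ndufa4 (-0.04) lie above 0.

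Complex II, succinate dehydrogenase, links the tricarboxylic acid cycle to coenzyme Q and consists of 4 nuclear-encoded subunits. All 4 were higher on the mean, and 0 of the 3 tested were called (median 0.44). Sdha, the flavoprotein that oxidises succinate, read 1.31, 1.67 and 1.69 in controls and 2.56, 1.88 and 2.13 in knockouts. No values of this probe overlapped, and control replicate 1 was its lowest array, unlike most members (difference 0.45 from 2 usable knockouts, SE 0.21, adjusted p = 0.238). Without outlier removal the difference was 0.63. A second, dimmer Sdha probe could not be tested. With outlier spots kept it read 1.03, 0.78 and 0.51 in controls and 1.68, 0.91 and 1.23 in knockouts. There the groups overlapped, control replicate 1 was the highest control, and the difference was 0.50 (SE 0.25).

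Sdhb, the iron-sulfur subunit, differed by 0.30 (SE 0.20, adjusted p = 0.382), and its knockout replicate 2 (1.97) lay just under control replicate 1 (1.99). The membrane anchor Sdhd, whose window carries the ETS/GABP and ERR letters, read 2.52, 2.24 and 2.55 against 3.16, 2.65 and 2.80 without overlap (0.44, SE 0.19, adjusted p = 0.206). The other anchor, Sdhc, had no usable knockout spot; with outlier spots kept it read 1.64, 1.08 and 1.17 against 2.09, 1.38 and 1.90, a difference of 0.49 (SE 0.25) with overlap.

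Complex III transfers electrons from coenzyme Q to cytochrome c. Its 7 tested members were all higher (median 0.38, 0 called). With outlier spots kept, every knockout exceeded every control for 7 of 8 members. The same held for 17.3% of all probes and 32.9% of the brightest other named genes. Uqcr10, a small accessory subunit, had the largest difference: 2.62, 2.27 and 2.50 in controls against 3.44, 2.77 and 2.92 in knockouts (0.58, SE 0.22, a 1.495-fold higher signal, adjusted p = 0.155), and its dimmer probe gave 0.67 with overlapping groups.

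Uqcrc2, a core protein, read 2.79, 2.55 and 2.69 against 3.39, 2.98 and 3.04 (0.46, SE 0.17, adjusted p = 0.150). Uqcr11, another small subunit, read 2.43, 2.14 and 2.27 against 3.05, 2.54 and 2.63 (0.46, SE 0.19, adjusted p = 0.182). In each of these 3 genes the lowest knockout lay above the highest control. The smallest differences were those of Uqcrq (0.16, SE 0.18), Uqcrb (0.26, SE 0.23) and Uqcrh (0.37, SE 0.20). The Rieske iron-sulfur protein Uqcrfs1 was not tested and differed by 0.47 (SE 0.22) with outlier spots kept.

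Complex IV, cytochrome c oxidase, has catalytic subunits encoded by mitochondrial DNA, which the array annotation did not allow to be named, and nuclear subunits around them. Its 7 tested widely expressed members were all higher, with a median of 0.35. Cox7c, an accessory subunit, read 2.47, 2.21 and 2.25 in controls and 3.13, 2.64 and 2.85 in knockouts. It had the lowest adjusted p of all widely expressed members (0.57, SE 0.18, a 1.48-fold higher signal, adjusted p = 0.113). Its second probe could not be tested and gave 0.25 (SE 0.20) with outlier spots kept and overlapping groups. Cox5a, which binds thyroid hormone metabolites, differed by 0.56 (SE 0.25, adjusted p = 0.225), and Cox6a1, whose window carries NRF1 and ETS/GABP letters, by 0.49 (SE 0.19, adjusted p = 0.162).

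The widely expressed forms of paralogue pairs shared the common direction. Cox4i1 read 3.14, 2.83 and 3.07 against 3.70, 3.19 and 3.20 (0.35, SE 0.20, adjusted p = 0.303), Cox7a2 differed by 0.35 (SE 0.19) and Cox7b by 0.23 (SE 0.23). Cox6b1 and Cox8a had too few usable knockout spots and differed by 0.46 (SE 0.20) and 0.47 (SE 0.18) with outlier spots kept, and Cox6c by 0.35 (SE 0.19). Cox7a2l, a supercomplex assembly factor, differed by 0.23 (SE 0.17).

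The tissue-restricted paralogues did not share it: of 6 tested, 1 was higher and 5 were lower (median -0.54). Cox7a1, the heart and skeletal muscle form of subunit VIIa, read -0.00058, -1.53 and -0.55 in controls and 2.26, 1.05 and 1.33 in knockouts. No values overlapped and the difference was the largest among the members (2.24, SE 0.47, a 4.71-fold higher signal), just outside the threshold (adjusted p = 0.0523). It passed with outlier spots kept (adjusted p = 0.0484), with median centring, both quantile-based normalizations, array weights and the series' own value table, and without control replicate 1. It did not pass when any other single array was left out (adjusted p 0.0573 to 0.121, differences 1.82 to 2.49).

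Cox6a2, the heart and skeletal muscle form of subunit VIa, lay the other way. It read -3.99, -4.00 and -4.27 in controls and -4.80, -4.80 and -5.11 in knockouts, with tight groups and no overlap (-0.82, SE 0.17, a 1.76-fold lower signal, adjusted p = 0.0519, and 0.0490 with outlier spots kept). Cox6b2, the testis form of subunit VIb, read 0.18, -0.90 and -1.28 against -2.57, -1.39 and -1.63. All knockouts lay below all controls, but both groups were spread widely (-1.19, SE 0.46, adjusted p = 0.157).

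Cox8b, the muscle and brown fat form of subunit VIII, read -1.19, -2.89 and -2.88 against -2.95, -2.43 and -2.39, so that its negative difference (-0.27, SE 0.48, adjusted p = 0.751) rested on control replicate 1 and became 0.30 without it. The summed signal of the fat markers was also highest on that array, at 30.1 against 8.08 to 13.9 on the others, in multiples of the array's 75th percentile. The part of fat in the Cox8b values was not tested. Cox4i2, the lung form of subunit IV, which is regulated by oxygen, overlapped fully between the groups (-0.01, SE 0.22, adjusted p = 0.973).

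Because Cox6a2, Cox7a1 and Cox8b are muscle forms, skeletal muscle markers were read on the same arrays. Their summed signal was 3.33 to 4.16 in controls and 7.45 to 11.98 in knockouts. Of 14 tested, 11 were higher and 3 lower, with a median of only 0.18. The test called 3 of them (Tnni1, Myh1 and Myh2), against 3.97% of all probes. The slow troponin Tnni1 rose by 3.72 (SE 0.40, adjusted p = 0.0184) and the fast myosin Myh1 by 2.07 (SE 0.19, adjusted p = 0.0160). Myh2 was well above background only in knockouts and entered the test through that group. Only a bound applies to it, at least 4.61-fold higher, and its call adds nothing to those of Tnni1 and Myh1. Among the lower ones, Actn3 was well above background only in controls, at least 1.14-fold higher there. The skeletal actin Acta1 differed by 0.13 and the fast troponin Tnni2 by 0.06, and myoglobin (Mb) was well above background on no array. The summed smooth muscle signal was 54.1 to 67.2 in controls and 74.4 to 86.2 in knockouts, and 8 of 8 tested smooth muscle markers were higher (median 0.36, 0 called). The part of muscle in the Cox7a1, Cox6a2 and Cox8b values was not tested.

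**Figure D4:**
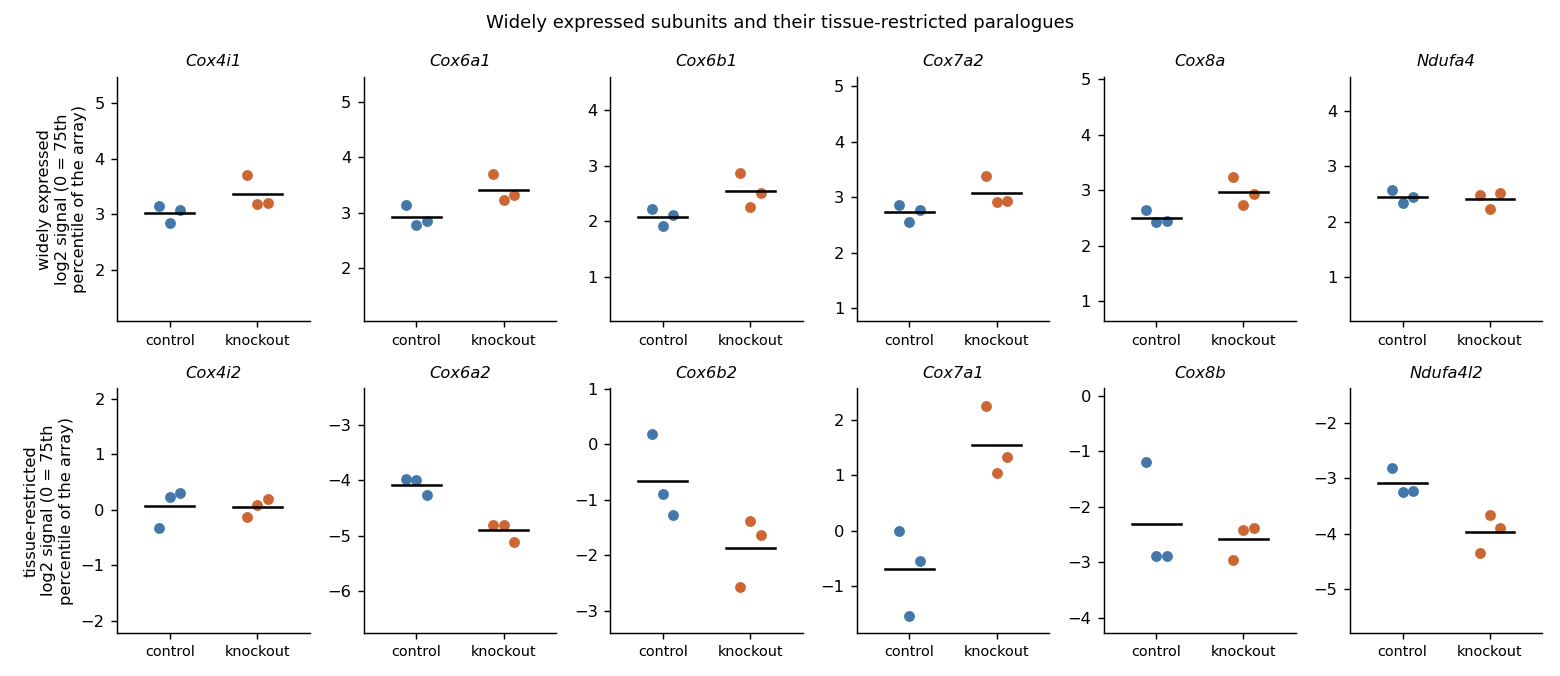
Log2 signal after scaling to each array's 75th percentile (y axis, each panel spanning the same range of log2 units) in controls and knockouts for 6 widely expressed subunits (top) and their tissue-restricted paralogues (bottom); points are arrays with outlier spots kept, bars are means. Cox7a1 is higher in all 3 knockouts, Cox6a2, Cox6b2 and Ndufa4l2 lower, and Cox4i2, Cox8b and Ndufa4 overlap.

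The ATP synthase consists of a catalytic F1 head and a proton-conducting Fo part. Its 11 tested members were all higher (median 0.30, 0 called), and all 17 with outlier spots kept (median 0.40). In the F1 head, Atp5a1 encodes the alpha, Atp5b the beta and Atp5c1 the gamma subunit. Atp5a1 read 1.93, 1.57 and 1.46 in controls and 2.66, 2.004 and 2.10 in knockouts, without overlap (0.54 from 2 usable values per group, SE 0.20, adjusted p = 0.178). Atp5c1 read 2.63, 2.37 and 2.57 against 3.23, 2.76 and 2.84 (0.42, SE 0.18, adjusted p = 0.204). Atp5d, the delta subunit, differed by 0.40 (SE 0.20, adjusted p = 0.276), and by 0.56 with outlier spots kept.

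Atp5b (0.21, SE 0.21), the epsilon subunit Atp5e (0.17, SE 0.22) and the c-ring gene Atp5g2 (0.22, SE 0.16) had the smallest differences, with adjusted p between 0.423 and 0.651. The place of Atp5b rests on 1 of its 3 probes: with outlier spots kept that probe gave 0.30, and the other 2, which could not be tested, gave 0.47 and 0.53. Of the 3 genes that encode the same mature c subunit, Atp5g1 differed by 0.52, Atp5g2 by 0.21 and Atp5g3 by 0.21 with outlier spots kept. Atp5g3, Atp5j, Atp5j2, Atp5md, Atp5mpl and Atp5pb were lost to outlier marks. Kept, the stalk genes Atp5pb (subunit b) and Atp5j (subunit F6) differed by 0.44 (SE 0.20) and 0.40 (SE 0.19), and the membrane subunits Atp5j2, Atp5md and Atp5mpl by 0.40, 0.26 and 0.47.

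Genes that act upstream of or beside the subunits were read from 4 lists. Of the tricarboxylic acid cycle and pyruvate entry genes 12 of 13 tested were higher, 0 were called, and the median was 0.34. Among them citrate synthase (Cs) differed by 0.52 (SE 0.21) and the succinate-CoA ligase subunit Suclg2 by 0.9995 (SE 0.20, adjusted p = 0.0657), with overlapping groups once outlier spots were kept. Among the electron carrier and coenzyme Q synthesis genes 9 of 11 were higher (median 0.37, 0 called), with cytochrome c (Cycs) at 0.55 (SE 0.22).

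Of the assembly factors of the complexes 28 of 41 tested were higher, with a median of 0.14. The test called 1 of them, against 3.97% of all probes. This gene, Sco1, a copper chaperone of complex IV, read -0.42, -0.96 and -0.97 in controls and 0.35, 0.11 and 0.07 in knockouts. After removal of outlier spots, which took out the value of control replicate 1, Sco1 rose by 1.14 (SE 0.18, adjusted p = 0.0404). The call was lost with outlier spots kept (0.96, adjusted p = 0.05003), without the filter on dim probes (adjusted p = 0.05986) and without any 1 of the 3 knockouts (0.0643 to 0.0998). Over all settings its limma adjusted p went up to 0.156. The complex IV assembly genes Cox14 and Cox11 differed by 0.61 (SE 0.18) and 0.57 (SE 0.20) without being called.

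Regulators of mitochondrial biogenesis split. Of 12 tested, 3 were higher, 9 lower and 0 called (median -0.26), and with outlier spots kept 7 of 15 were higher (median -0.25). Ppargc1a, the PGC-1alpha coactivator, read 0.22, -1.49 and -1.55 in controls and 2.58, 0.92 and 1.14 in knockouts. No values overlapped; with 2 usable values per group the difference was 1.66 (SE 0.60, adjusted p = 0.168), and 2.48 with outlier spots kept (SE 0.61, adjusted p = 0.0656). Its relative Ppargc1b could not be tested and read 0.43, -0.55 and -0.08 against 1.30, 0.73 and 0.76.

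Esrra, the nuclear receptor ERRalpha through which PGC-1alpha acts on many subunit genes, read 1.42, 0.92 and 1.19 against 2.50, 1.81 and 2.06, without overlap (0.95, SE 0.23, a 1.93-fold higher signal, adjusted p = 0.0686). Esrrg, a related receptor, was the third higher gene (2.46, SE 0.58, adjusted p = 0.0646). The values of Nrf1 (-0.19, SE 0.18), Gabpa (-0.26, SE 0.21) and Tfam, the mitochondrial transcription factor A (-0.49, SE 0.19), were negative in the tested probe that stood for each gene, with adjusted p between 0.198 and 0.534. Other tested probes gave -0.34 for Nrf1, 0.10 and 0.18 for Gabpa and -0.11 for Tfam, and the Nrf1 difference was 0.06 with outlier spots kept. A brighter Nrf1 probe could not be tested and gave 0.49 (SE 0.22) with outlier spots kept and overlapping groups, so the probes of Nrf1 and of Gabpa differed in sign.

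**Figure D5:**
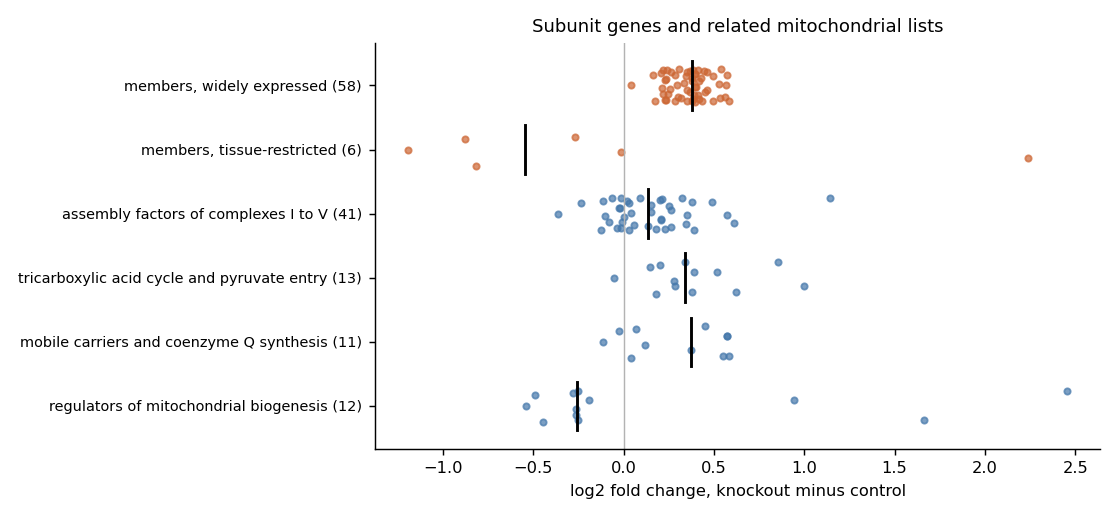
Log2 fold change (x axis, knockout minus control) of each tested gene in the widely expressed and tissue-restricted subunits and in 4 related mitochondrial lists (number of genes in brackets), with the median as a bar. Medians were 0.38 and -0.54 for the subunit classes, 0.14 for assembly factors, 0.34 for the tricarboxylic acid cycle, 0.37 for carriers and coenzyme Q synthesis and -0.26 for regulators, whose 3 highest points are Ppargc1a, Esrra and Esrrg.

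Markers of several cell types differed in the same contrast, the smooth muscle markers (median 0.36) by about as much as the subunit genes. The 16 colon epithelium markers had a summed signal of 32.7 to 107.2 in controls and 122 to 162 in knockouts, and 14 of 14 tested were higher (median 1.21, 0 called). Control replicate 2, the lowest array for most subunit genes, was also lowest for these markers, and knockout replicate 1 was highest for both. The summed smooth muscle signal was likewise lowest on control replicate 2 (54.1) and highest on knockout replicate 1 (86.2). The 10 neutrophil markers had a summed signal of 20.3 to 21.5 in controls and 10.4 to 11.1 in knockouts. Of 9 tested, 7 were called lower and 1, Ltf, called higher, against 3.97% of all probes called in either direction. Macrophage (7 of 7), endothelial (7 of 7) and fibroblast and pericyte markers (9 of 9) were lower, with medians of -0.75, -1.17 and -0.63, and Pdgfrb was the one of these that was called. Lymphocyte markers were lower for 8 of 9 tested (median -0.48) and enteric neuron and glia markers for 8 of 10 (median -0.27), with 0 called in either list. In these bulk samples fewer cells of a type and less RNA per cell cannot be told apart, and the part of cell composition in the subunit values was not tested.

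Under array weighting, which gave knockout replicate 1 and control replicate 1 low weights of 0.367 and 0.343, 23% of probes were called, and 9 of 64 members: Cox6a1, Cox7a1, Cox7c, Ndufa9, Ndufb8, Ndufb9 and Uqcrc2 higher and Cox6a2 and Ndufa4l2 lower. The share of members (9 of 64) stayed below that background. The direction of the 58 widely expressed members was the same as without weights, and their median was 0.36.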

How the data were processed

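Single-colour Agilent arrays of 6 colon samples were used, read with Feature Extraction 11.5.1.1 per the file headers (the submitters' processing notes name 10.7). The deposited processed signal is a linear intensity after background subtraction and detrending per the file headers, with no scaling between arrays. The series' value table, an alternative, holds deposited intensities that follow each array's processed signal (log2 correlation 0.9999993 or more, column medians 492 to 829, not centred); how it was made is not given in the sources used here. The labels name Cy3, while the files hold the red channel, which was used.

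Signals were converted to log2 from the deposited intensities and the array's 75th percentile was subtracted. Spots marked as outliers were removed for the tests, while the values printed for single arrays include them. Probes well above background on all 3 arrays of either group with at least 2 usable values per group were tested (35351 of 56605) by limma 3.58.1 (R 4.3.3) with two-sided p-values and Benjamini-Hochberg adjustment over all probes at 0.05. Standard errors are limma's; "outlier spots kept" names the same fit with those spots included. An exact permutation test of 3 against 3 cannot go below 0.1. The number of arrays limits the precision, and no label says whether samples came from separate animals, so p-values measure the spread between these samples. The procedure was run on simulated data with independent noise for each probe. Those data held no array shift shared by many genes, so that case was not tested.

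Probes were named by RefSeq accession (GRCm38.p6, 33767 probes); the files place probes on mm9. The brightest tested probe stood for a gene, or the brightest probe where none was tested. Promoter windows are RefSeq's. The named genes were Islr, any member called, the 3 largest and 3 smallest differences per complex, all Sdh genes, paralogue pairs, members with probes of opposite sign or untested, called pathway genes and 6 regulators; other genes named were picked after their values were seen. The members and lists were chosen with earlier results of these data known. Replicate numbers follow accession order and pair no samples. Alternatives were outlier spots kept, other scalings, background correction, filters, array weights, the value table and each array left out. Results for some genes are not reported here.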

Additional observations from a re-analysis of the deposited data

How the results depend on the processing

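The count of probes called depended on the settings: against 1403, limma called 2249 with median centring, 2185 with quantile normalization, 2773 with normexp and quantile normalization, 484 without the filter on dim probes, 8119 with array weights, 2274 from the series' value table and 425 with quantile normalization without knockout replicate 1. Leaving out 1 array gave 40 to 3185, outlier spots removed or kept. The members called went from 0 to 2 with outlier spots kept, 9 with array weights, and 1 (Cox7a1) with median centring, both quantile normalizations or the value table. Leaving out 1 array gave 0 or 1. The members' median fell from 0.37 to 0.1609 with quantile normalization without knockout replicate 1, and 38 to 77 members were higher when 1 array was left out, as the number tested ranged from 43 to 81. The Islr difference ranged from -2.69 to -2.34 in those fits, and its call was lost without knockout replicate 3 (adjusted p = 0.0580). With the mean over a gene's tested probes 58 members were higher, as Ndufa7 turned to -0.32. Among the other genes named, these settings turned a sign: Ndufa2 to -0.023 with median centring and -0.040 with normexp, Ndufb2 to -0.0006 with normexp, Cox8b to 0.296 with array weights (-0.55 to 0.30 with 1 array left out), Cox4i2 to 0.015 with median centring, 0.013 from the value table and 0.075 with quantile normalization without knockout replicate 1 (-0.21 to 0.10 with 1 array left out), and Nrf1 to 0.055 with outlier spots kept and 0.082 from the value table (-0.27 to 0.19 with 1 array left out). With quantile normalization without knockout replicate 1, 1 further member turned. The cause was not tested. The fits that left out 1 array with outlier spots kept, and the last quantile fit, were chosen after seeing the data. No paired analysis was possible because the labels give no replicate numbers. Signal over background limited only Cox7b2, Cox8c and the dim Ndufa7 probe among the members.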

Other observations

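AA467197, a small gene related in sequence to Ndufa4 and outside the rule for members, was looked up after the Ndufa4 values were seen. It read 2.61, 1.43 and 2.44 in controls and 3.26, 2.84 and 2.91 in knockouts. No values overlapped, but the difference missed the threshold (0.94 from 2 usable values per group, SE 0.38, limma adjusted p = 0.207). With outlier spots kept it was 0.84 (adjusted p = 0.157), beside -0.04 for Ndufa4 and -0.88 for Ndufa4l2.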
